A study of Mus musculus with 2 samples.

Results

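The T helper 1 (Th1) axis was followed through 5 genes, Ifng, Tbx21, Il12rb2, Stat4 and Cxcr3, chosen by name as the gene rows of both deposited matrices, with the accessible regions called within 50 kb of each gene. They are 5 of 32285 gene rows. The matrices are 10x Multiome libraries, which count RNA molecules (unique molecular identifiers, UMIs) and open-chromatin reads in the same nuclei. Nuclei came from effector T cells sorted as CD4+CD44+CD62L- and lacking CD8a, CD11c, CD45R and F4/80, from colon and small intestine of mice aged 26 to 33 weeks. The control library is Zfp362flox/flox, so its mice carry the floxed Zfp362 alleles without a Cre, although the title of that sample reads Zfp362+/+. The knockout library is CD4creZfp362flox/flox, in which Cre is driven by Cd4 regulatory sequence, active in T cells from their development in the thymus. The stated number of animals is 7 mice, and it is unclear if that applies to each genotype or to both, but each genotype is 1 library. Differences between the libraries therefore have no replicate check, no p-value is given, and the 95% intervals given reflect counting error alone. A range in parentheses after a value is that interval.

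Th1 cells are the CD4 T cells that drive macrophages and other cells against intracellular microbes through interferon gamma. Interleukin 12 binds its receptor, whose inducible chain is encoded by Il12rb2, and activates the transcription factor STAT4. STAT4 and the T-box factor T-bet, encoded by Tbx21, then open and activate Ifng, and T-bet also activates Il12rb2 and the chemokine receptor gene Cxcr3, which guides cells to sites where interferon-induced chemokines are made. In the intestine the same genes are also used by group 1 innate lymphoid cells, cytotoxic cells and part of the group 3 innate lymphoid cells (ILC3).

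The deposited barcodes numbered 4223 for the control and 2391 for the knockout, with 11 found in both, and 4032 and 2264 were kept. A nucleus with at least 2 UMIs of Cd3d, Cd3e and Cd3g together, which encode chains of the T cell receptor complex, was called Cd3-positive, and one with 0 was called Cd3-negative. The labels name T cells, yet 40.1% of kept control nuclei and 40.1% of kept knockout nuclei had no Cd3 UMI. There were 1748 control and 1011 knockout Cd3-positive nuclei, and 1615 and 908 Cd3-negative ones. Cd3-positive nuclei had a median of 2357 control and 3591 knockout UMIs, and Cd3-negative ones 1890 and 2024.5. Cd4 was detected in 48.0% of control and 84.2% of knockout Cd3-positive nuclei, and also in 34.7% and 49.6% of the Cd3-negative ones. Cd4 RNA was 2.69-fold higher in the knockout than in the control Cd3-positive nuclei. The targeted gene Zfp362 gave 54 UMIs in control and 48 in knockout Cd3-positive nuclei, or 9.36 and 7.82 counts-per-million (CPM), intervals 7.03 to 12.2 and 5.76 to 10.4. The deleted part of the gene is not named in the labels, so this count is no check of them.

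Ifng (ENSMUSG00000055170) lies at chr10:118441046-118445892 of mm10 on the plus strand, Tbx21 (ENSMUSG00000001444) at chr11:97098071-97115331 on the minus strand, and Cxcr3 (ENSMUSG00000050232) at chrX:101731535-101734269 on the minus strand. Il12rb2 (ENSMUSG00000018341) lies at chr6:67291318-67376188 on the minus strand and Stat4 (ENSMUSG00000062939) at chr1:51987148-52107189 on the plus strand. The far end of Il12rb2 overlaps Serbp1 on the other strand, and whether counting used the strand is not given in the sources used here, so reads there cannot be told apart.

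The start sites of Ifng, Tbx21, Il12rb2 and Cxcr3 each lay inside a region called accessible in both libraries, and the promoters of Ifng, Il12rb2 and Cxcr3 are printed because accessibility over the Ifng start followed its RNA across clusters while that over the other pair did not. All 5 genes were matched in the RefSeq table of GRCm38.p6, which gives 6 promoters because Stat4 has a pair of start sites. Each line holds the 250 bases before the start, read in the direction of the gene, in lower case with any match to 4 searched motifs in capitals.
Ifng, chromosome 10, 118440796 to 118441045, plus strand: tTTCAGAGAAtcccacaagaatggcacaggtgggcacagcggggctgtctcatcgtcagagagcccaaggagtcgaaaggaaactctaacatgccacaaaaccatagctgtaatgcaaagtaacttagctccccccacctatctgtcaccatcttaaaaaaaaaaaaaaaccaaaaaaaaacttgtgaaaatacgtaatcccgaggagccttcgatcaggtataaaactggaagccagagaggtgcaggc
Il12rb2, chromosome 6, 67376189 to 67376438, minus strand: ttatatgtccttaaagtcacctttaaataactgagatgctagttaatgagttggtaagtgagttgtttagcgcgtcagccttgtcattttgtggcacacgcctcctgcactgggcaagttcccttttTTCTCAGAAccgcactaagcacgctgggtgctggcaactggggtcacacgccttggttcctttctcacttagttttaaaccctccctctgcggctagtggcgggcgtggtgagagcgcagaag
Cxcr3, chromosome X, 101734148 to 101734397, minus strand: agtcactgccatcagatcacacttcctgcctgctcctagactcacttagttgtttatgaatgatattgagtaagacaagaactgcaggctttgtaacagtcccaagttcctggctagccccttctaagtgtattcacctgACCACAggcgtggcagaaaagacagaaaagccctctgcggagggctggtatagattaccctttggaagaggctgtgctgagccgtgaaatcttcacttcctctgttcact
The motifs were searched on both strands: AGGTGT for T-box factors, TTCNNNGAA for STAT factors, TGTGGT for RUNX factors and TGANTCA for AP-1. The STAT motif was matched once in the Ifng promoter, beginning 249 bases before the start, and once in that of Il12rb2, 123 bases before it. The RUNX motif was matched once in the Cxcr3 promoter, 110 bases before the start, where the capitals show it as its complement. None of the 4 was matched in the Tbx21 promoter or in either Stat4 promoter. Of 32851 promoters of this length, 7.02% hold the STAT motif, 14% the RUNX motif, 11.8% the T-box motif and 6.75% the AP-1 motif. A match is a description of the letters and not evidence of binding.

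In Cd3-positive nuclei all 5 genes were detected in both libraries, and all 5 were higher there than in Cd3-negative nuclei. Levels are CPM of the summed nuclei. Nuclear RNA holds unspliced transcripts, so a long gene such as Stat4 collects more UMIs than a short one, and levels are compared between nuclei and not between genes. Ifng stood at 123 CPM in control and 105 CPM in knockout Cd3-positive nuclei, against 52.5 and 40.8 CPM in Cd3-negative ones. Il12rb2 stood at 404 and 550 CPM in Cd3-positive and at 140 and 187 CPM in Cd3-negative nuclei. For both genes the Cd3-positive values lay above both Cd3-negative values with intervals that did not overlap.

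**Figure D1:**
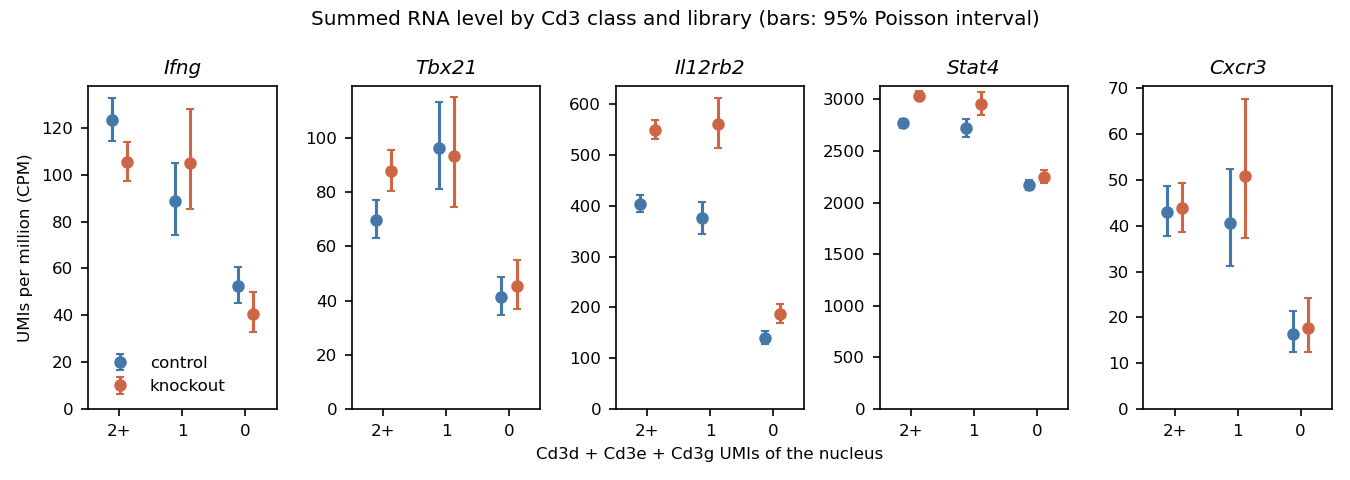
Level of each gene in CPM (linear axis) in nuclei with 2 or more, 1 or 0 UMIs of Cd3d, Cd3e and Cd3g, in the control (blue) and knockout (orange) library; bars are 95% Poisson intervals. All 5 genes are lowest in nuclei with 0, and in nuclei with 2 or more Il12rb2 has the largest ratio between the libraries of the 5 genes (404 and 550 CPM).

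Tbx21 stood at 69.9 and 87.6 CPM in control and knockout Cd3-positive nuclei and at 41.3 and 45.3 CPM in Cd3-negative ones. Cxcr3 stood at 43.0 and 43.8 CPM in Cd3-positive and at 16.4 and 17.7 CPM in Cd3-negative nuclei. Stat4, which is also used by innate lymphoid and myeloid cells, stood at 2767 and 3037 CPM in Cd3-positive and at 2167 and 2251 CPM in Cd3-negative nuclei. On the log2 scale the difference of Cd3-positive from Cd3-negative nuclei was 1.23 (control) and 1.36 (knockout) for Ifng, 1.53 and 1.55 for Il12rb2, and 1.38 and 1.29 for Cxcr3. It was 0.75 and 0.95 for Tbx21 and 0.35 and 0.43 for Stat4. None of these 10 intervals reached 0, the lowest bound being 0.31, for Stat4 in the control library. Ifng, Il12rb2 and Cxcr3 were at least 2-fold higher in both libraries, 3 of 5 members, and 0 were lower, against 3.29% of 11454 genes tested that were at least 2-fold higher in both and 7.43% that were lower.

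Part of the Cd3-negative signal came from nuclei that clustered with T cells. Nuclei of both libraries were clustered together without the 5 genes, Cd3 genes and T cell receptor genes, which gave 18 clusters. Of the Cd3-negative nuclei, 36.6% of control and 34.4% of knockout ones fell in clusters high in Cd3. These held 86.6% and 91.1% of the Ifng UMIs in Cd3-negative nuclei, 82.3% and 72.0% of the Tbx21 UMIs, 89.3% and 90.1% of the Il12rb2 UMIs and 75.0% and 82.1% of the Cxcr3 UMIs. Stat4 differed, with 40.9% and 45.0% in those clusters and 50.9% and 46.9% in ILC3-like clusters. With whole clusters in place of single nuclei, the difference between Cd3-high and Cd3-low clusters was 3.57 and 3.52 for Ifng and 3.63 and 2.65 for Il12rb2.

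Stat4 RNA was found in most Cd3-positive nuclei, and that of each of the other 4 genes in fewer than 50% of them. In the control library 280 of 1748 Cd3-positive nuclei held an Ifng UMI, and 46 of them held 50% of its 712 UMIs, with up to 42 in 1 nucleus. In the knockout library 250 of 1011 held one, 51 held 50% of 647 UMIs, and the highest nucleus had 16. Il12rb2 was found in 489 control and 445 knockout nuclei, with 50% of its UMIs in 93 and 73 of them. Tbx21 was found in 261 and 266 nuclei and Cxcr3 in 201 and 189. Stat4 was found in 93.5% and 95.6% of Cd3-positive nuclei.

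These shares rise with depth, so each nucleus was thinned to 1000 UMIs before shares and pairs were compared. At that depth Ifng was detected in 8.24% of control and 9.50% of knockout Cd3-positive nuclei, with intervals of 6.99% to 9.63% and 7.76% to 11.5%. Tbx21 was detected in 6.01% and 8.41%, with intervals of 4.94% to 7.23% and 6.77% to 10.3%. Il12rb2 was detected in 19.1% and 26.8%, with intervals of 17.2% to 21.0% and 24.1% to 29.7% that did not overlap. Cxcr3 was detected in 4.12% and 4.75%, and Stat4 in 81.5% and 85.5%. As a reference for RNA that does not belong to the nucleus, cluster 2, an ILC3-like cluster with a median depth of 1872 UMIs, gave 0.71% for Ifng, 0.71% for Tbx21, 0.18% for Il12rb2 and 0% for Cxcr3 in the control library. For Cxcr3 that was 0 of 562 nuclei, whose exact binomial interval reaches 0.654%. In the knockout library the same cluster gave 0.32% for Ifng, Il12rb2 and Cxcr3, or 1 of 311 nuclei each, and 0% for Tbx21. Without thinning, its Il12rb2 level was 2.78 CPM (0.57 to 8.12) in the control and 15.3 CPM (7.36 to 28.2) in the knockout library, on 3 and 10 UMIs.

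Within Cd3-positive nuclei, the 3 pairs among Ifng, Tbx21 and Il12rb2 were found in the same nuclei more often than their separate shares would give, with intervals above 1 except for Ifng with Tbx21 in the knockout library. At 1000 UMIs, 21 of 1748 control nuclei held both Ifng and Tbx21, where the product of the shares gives 8.65, a ratio of 2.43 with an interval of 1.51 to 3.70. Intervals of these ratios are those of the count of nuclei with both, with the product held fixed. The error of the separate shares is left out. In the knockout library 13 of 1011 held both against 8.07, a ratio of 1.61 with an interval of 0.86 to 2.74. Ifng and Il12rb2 were found together in 65 control nuclei against 27.4, a ratio of 2.37, and in 43 knockout nuclei against 25.7, a ratio of 1.67. Of control nuclei with an Ifng UMI, 45.1% also had an Il12rb2 UMI, against 16.7% of those without. Among knockout nuclei these shares were 44.8% and 24.9%.

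Tbx21 and Il12rb2 were found together in 41 control and 37 knockout nuclei, ratios of 2.05 (interval 1.48 to 2.77) and 1.62 (interval 1.15 to 2.22). Pairs with Cxcr3 rested on 5 to 21 nuclei and had ratios of 1.46 to 1.62 in the control and of 1.24 to 1.97 in the knockout library. Of those 6 ratios, that of Il12rb2 and Cxcr3 in the knockout library (1.63, interval 1.01 to 2.48) was the 1 with an interval above 1. These ratios moved with the settings at such counts: a second random thinning gave 0.25 in place of 1.24 for Tbx21 and Cxcr3 in the knockout library, and calling nuclei Cd3-positive at 1 UMI gave 0.51 in place of 1.97 for Ifng and Cxcr3. Stat4, which most nuclei held, gave ratios of 0.92 to 1.08 with every member, and all 8 intervals included 1. A gene found in most nuclei cannot give a ratio far above 1, so these ratios do not decide whether Stat4 goes with a member. Stat4 was found in 86.8% of control nuclei with an Il12rb2 UMI and 80.3% of those without, and in 91.1% and 83.4% of knockout ones. For Cxcr3 the shares went the other way, 75.0% and 81.8% in the control and 81.25% and 85.7% in the knockout library. Control and knockout intervals overlapped for every pair of members in Cd3-positive nuclei. The pairs among Ifng, Tbx21 and Il12rb2 were also found together in Cd3-negative nuclei, on 8 to 20 nuclei, with every interval above 1. There the control and knockout ratios were 4.13 (1.79 to 8.12) and 7.32 (3.17 to 14.4) for Ifng with Tbx21. They were 3.73 and 4.88 for Ifng with Il12rb2, and 5.59 and 3.27 for Tbx21 with Il12rb2. Clusters high in Cd3 held 36.6% and 34.4% of these nuclei but 72.0% to 91.1% of the UMIs of the 3 genes in them. A class mixed in this way can give higher ratios, so these cannot be set against those of Cd3-positive nuclei.

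**Figure D2:**
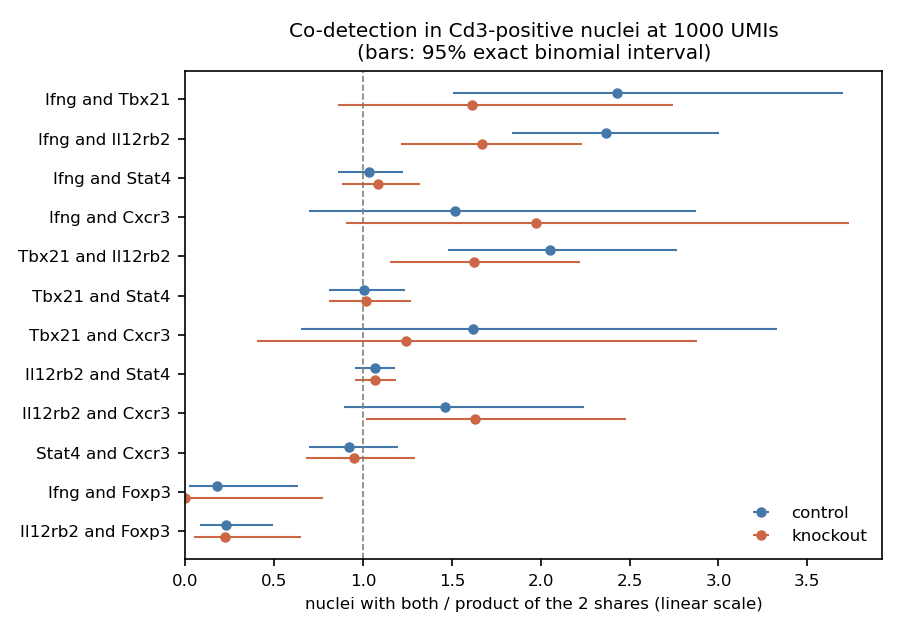
Number of Cd3-positive nuclei with both genes divided by the product of their shares (linear axis), at 1000 UMIs per nucleus. Bars are 95% exact binomial intervals of the count with both, the product held fixed, and 1 (dashed) is what separate detection gives. Pairs among Ifng, Tbx21 and Il12rb2 lie above 1, though the knockout interval of Ifng with Tbx21 (0.86 to 2.74) includes 1. Ifng or Il12rb2 with Foxp3 lie below 1. Pairs with Stat4 lie near 1 (0.92 to 1.08), and a gene found in most nuclei cannot lie far above it.

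Markers of other T cell programmes were set against the members in the same way. Foxp3, which specifies regulatory T cells, was found with Ifng in 2 control nuclei against a product of 11.4 and in 0 knockout nuclei against 4.75. Foxp3 with Il12rb2 was found in 6 and 3 nuclei against 26.3 and 13.4, ratios of 0.23 and 0.22. Foxp3 with Cxcr3 was found in 1 control nucleus against 5.68, a ratio of 0.18 (0.004 to 0.98). In the knockout library that pair was found in 2 nuclei against 2.37, a ratio of 0.84 (0.10 to 3.04). Foxp3 with Tbx21 gave 0.24 (0.03 to 0.87) in the control and 0.48 (0.06 to 1.71) in the knockout library. Gata3, the Th2 regulator that is also expressed at a lower level in other T cells, gave 0.74 (interval 0.57 to 0.94) with Il12rb2 in the control and 0.82 (interval 0.62 to 1.05) in the knockout library. Bcl6, the regulator of follicular helper T (Tfh) cells, gave ratios of 0.65 to 1.26 with the 4 members other than Stat4, and all of those intervals included 1. Of the 4 members other than Stat4, 381 control nuclei held exactly 1, 112 held 2, 15 held 3 and 1 held 4. Of knockout nuclei 298 held 1, 74 held 2, 18 held 3 and 0 held 4.

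**Figure D3:**
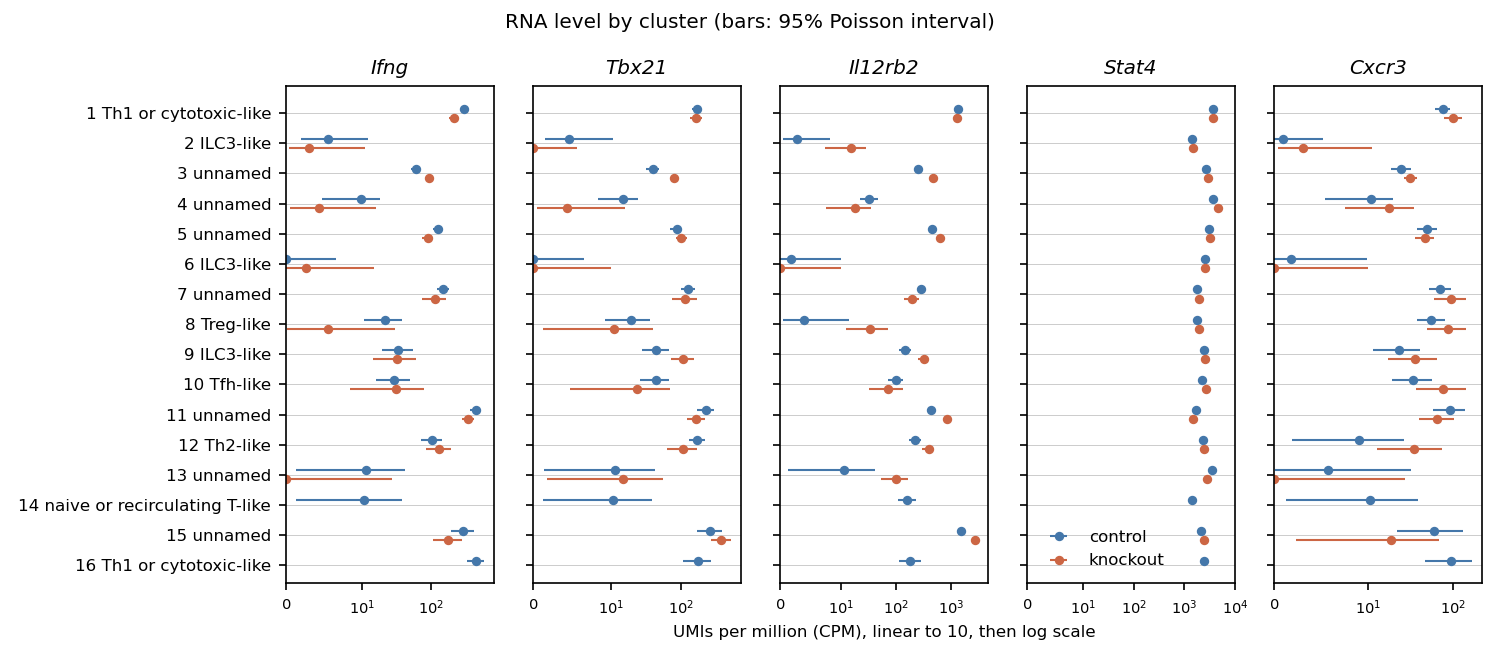
Level of each gene in CPM by cluster (axis linear up to 10 and logarithmic above), control in blue and knockout in orange, for clusters with at least 40 nuclei in the library, with 95% Poisson intervals. Ifng, Tbx21 and Il12rb2 share their high clusters (1, 11 and 15), ILC3-like clusters 2 and 6 lie at or below 15.4 CPM for every member but Stat4, and Stat4 lies above 1000 CPM in all clusters shown.

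By cluster, Ifng, Tbx21 and Il12rb2 had the most similar patterns, with exceptions such as cluster 16, Cxcr3 shared them in part, and Stat4 was broad. Clusters were named from markers other than the members, and several stayed unnamed. Cluster 1, Th1 or cytotoxic-like, held 610 control and 317 knockout nuclei, or 15.1% and 14.0% of the kept ones. It held 46.4% of the control and 19.2% of the knockout library's Il12rb2 UMIs, at 1327 and 1283 CPM. Its control and knockout levels of Ifng were 303 and 216 CPM, and its Tbx21 level 165 and 161 CPM. Its Cxcr3 level was 76.5 and 102 CPM, with overlapping intervals.

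Of clusters with at least 50 nuclei in a library, Ifng was highest in cluster 16 (449 CPM) and cluster 11 (447 CPM) of the control library, whose intervals overlapped. Cluster 1 came next, below cluster 11 and touching the interval of cluster 16 (335 to 589 CPM). In the knockout library cluster 11 (349 CPM) lay above cluster 1. Cluster 11 had the heat-shock genes Hspa1a and Hspa1b among its leading genes. It stayed unnamed, with 3 of 14 listed Th1 or cytotoxic markers raised, too few for the naming rule. Cluster 16, the second Th1 or cytotoxic-like one, was led by Eomes, a T-box factor related to T-bet, and by Gzmk. It combined that Ifng level with 181 CPM of Il12rb2, far below the 1327 CPM of cluster 1, on 21 UMIs. It held 14 knockout nuclei, too few to compare.

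Il12rb2 was highest in cluster 15, which expressed natural killer receptor genes such as Klrc2 and Klrd1, at 1529 CPM in 48 control and 2710 CPM in 45 knockout nuclei, the former overlapping with cluster 1. Tbx21 in that cluster was 253 and 368 CPM. The Th2-like cluster 12, led by Il5 and Il13, also held Tbx21 (169 and 104 CPM), Ifng (102 and 132 CPM) and Il12rb2 (220 and 386 CPM). Among the Tbx21 values of clusters 11, 16, 12 and 1 in the control library each interval overlapped the next, so their order is not resolved.

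Cxcr3 was also found in T cell clusters low in the other members. The Treg-like cluster 8 held 56.0 and 87.6 CPM of Cxcr3, overlapping with cluster 1, while its Ifng was 21.2 and 5.48 CPM and its Il12rb2 3.86 and 32.9 CPM. The Tfh-like cluster 10 held 34.1 and 77.6 CPM of Cxcr3 on 15 and 10 UMIs. Cluster 4, which stayed unnamed, with 8 of 9 listed Treg markers raised and Il1rl1 and Klrg1 among its leading genes, held 10.9 and 17.6 CPM of Cxcr3. It had the highest Stat4 of the knockout clusters with at least 50 nuclei, at 4552 CPM, and in the control library its 3648 CPM overlapped with cluster 1. Cluster 13, unnamed, with 8 of 11 dendritic cell or macrophage markers raised, held 3587 CPM of Stat4 in the control library.

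ILC3-like clusters differed among themselves. Clusters 2 and 6 held 0 to 6 UMIs of Ifng and 0 to 5 of Tbx21 in either library, while Stat4 stood at 1436 and 1515 CPM in cluster 2 and at 2552 and 2613 CPM in cluster 6. Cluster 9, whose leading genes include Ncr1, the gene of the NKp46 receptor, held Tbx21 at 44.2 and 106 CPM, Il12rb2 at 145 and 316 CPM and Ifng at 33.7 and 31.9 CPM. Tbx21 is known to be used by NKp46-expressing ILC3. The Poisson intervals of Tbx21 and Il12rb2 in cluster 9 did not overlap those of clusters 2 and 6 in the same library.

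Over 27 profiles (a cluster in 1 library, with at least 50 nuclei), Pearson's r of log2(CPM + 1) was 0.94 between Ifng and Tbx21, 0.88 between Tbx21 and Il12rb2, and 0.86 between Ifng and Il12rb2. Cxcr3 gave 0.75 with Ifng, 0.80 with Tbx21 and 0.75 with Il12rb2. Stat4 gave 0.02 to 0.13 with the other 4. The profiles of 1 library share its depth and its free RNA, and those of 1 cluster share its definition, so these values are descriptions. Among 8035 genes the pattern most like Ifng was that of Fasl, the Fas ligand gene (0.95), followed by Tbx21 and by Nkg7, a cytotoxic granule gene (0.93). For Il12rb2 it was Nkg7 (0.91), for Cxcr3 Pitpnc1 (0.90), and for Stat4 Apaf1 (0.77), followed by Rel (0.73).

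Accessible regions were then counted around each gene. Positions are on mm10, and distances run from the annotated start, negative before it. Regions called in both libraries numbered 19 around Ifng, 23 around Tbx21, 15 around Il12rb2, 25 around Stat4 and 11 around Cxcr3, 93 in all. Another 9 were called in the control library alone and 13 in the knockout alone. Values are CPM over the counts in shared regions (peak CPM). Some windows hold neighbouring genes: Tbkbp1 and Osbpl7 beside Tbx21, and Serbp1 and Il23r beside Il12rb2. The Serbp1 promoter alone gave 89.9 peak CPM of the Il12rb2 window in control Cd3-positive nuclei, and a region of the noncoding genes Gm28177 and Gm31812 (81.8) was the highest of the Stat4 window. Around Ifng the regions summed to 145 peak CPM in control and 131 in knockout Cd3-positive nuclei, against 84.2 and 79.1 in Cd3-negative ones, log2 differences of 0.78 and 0.72.

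For Tbx21 the same sums were 242 and 265 in Cd3-positive and 196 and 191 peak CPM in Cd3-negative nuclei. For Il12rb2 they were 181 and 182 against 127 and 131, and for Stat4 423 and 405 against 316 and 315. Cxcr3 gave 96.2 and 99.1 against 92.6 and 93.9 peak CPM, log2 differences of 0.05 and 0.08 whose intervals include 0. Of 84 regions with at least 50 counts in each library, 25 were at least 2-fold higher in Cd3-positive nuclei in both libraries and 1 was at least 2-fold lower. Among 60673 shared regions tested, 6.65% were higher and 11.1% lower by that rule. By gene the higher regions numbered 7 of 16 around Ifng, 4 of 22 around Tbx21, 6 of 12 around Il12rb2, 7 of 24 around Stat4 and 1 of 10 around Cxcr3.

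**Figure D4:**
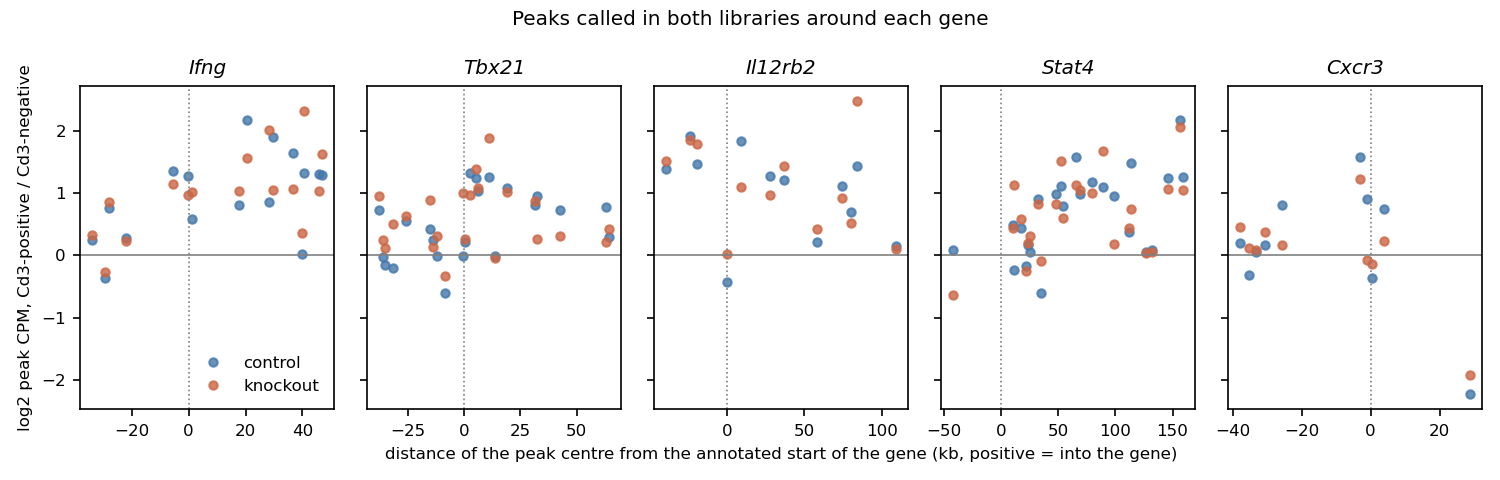
Log2 ratio of peak CPM in Cd3-positive over Cd3-negative nuclei against the distance of the region's centre from the annotated start, for regions called in both libraries with at least 50 counts in each, control in blue and knockout in orange. Most regions around Ifng and inside Il12rb2 and Stat4 lie above 0 in both libraries, and the region at the start of Il12rb2 (0 on the axis) and that of Cxcr3 lie at or below 0.02.

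The region over the Ifng start, at chromosome 10, 118440467 to 118441397, held 14.8 and 15.9 peak CPM in control and knockout Cd3-positive nuclei against 6.07 and 8.11 in Cd3-negative ones. Over the 27 profiles its accessibility followed Ifng RNA with r = 0.90, the highest of the 19 regions, ahead of an intergenic region at -5.45 kb (0.86) and one at -21.8 kb (0.75). The region at -21.8 kb was the most accessible of the window, with 34.5 and 35.5 peak CPM in Cd3-positive and 28.4 and 30.3 in Cd3-negative nuclei.

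At Tbx21, Il12rb2 and Cxcr3 the region over the start did not follow the RNA, and other regions, singled out after their r was seen, did. The Tbx21 start region, chromosome 11, 97114655 to 97115579, gave r = 0.33, whereas an intronic region at 11.2 kb, 97103728 to 97104586, gave 0.87. That intronic region held 16.0 and 18.4 peak CPM in Cd3-positive and 6.64 and 4.93 in Cd3-negative nuclei. A region in an intron of Tbkbp1, at -25.6 kb, gave 0.89. The Il12rb2 start region, chromosome 6, 67375742 to 67376599, held 9.36 and 9.80 peak CPM in Cd3-positive and 12.5 and 9.65 in Cd3-negative nuclei, with r = 0.14.

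An Il12rb2 intronic region at 27.8 kb, 67347767 to 67348916, gave r = 0.84 and an intergenic one at -23.5 kb, 67399238 to 67400221, gave 0.82. The latter held 15.6 and 16.0 peak CPM in Cd3-positive and 4.08 and 4.38 in Cd3-negative nuclei. The Cxcr3 start region, chromosome X, 101733547 to 101734483, held 13.1 and 15.6 peak CPM in Cd3-positive and 16.8 and 17.1 in Cd3-negative nuclei, with r = 0.11. Its neighbour at -3.18 kb, 101736990 to 101737917, held 14.6 and 17.9 against 4.84 and 7.56 peak CPM and gave r = 0.77. A Cxcr3 region at 28.97 kb went the other way, with 2.20 and 3.39 against 10.4 and 12.9 peak CPM.

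At Stat4 a called region lay beside the second of its RefSeq starts and none beside the first. No region was called in either library within 3.89 kb of the first start, at chromosome 1 position 51987148, where the nearest one was called in the control library alone. The second start, at 52008240, lay 65 bases from a region called in both, 52008305 to 52009245, with 35.6 and 33.5 peak CPM in Cd3-positive and 39.9 and 39.6 in Cd3-negative nuclei. That region was open in both classes of nuclei, with lower values in Cd3-positive nuclei, where Stat4 RNA was higher. Its r with Stat4 RNA was 0.20. Regions farther inside the gene differed more between the classes, such as one at 52.3 kb from the first start with 17.6 and 18.3 against 8.06 and 6.36 peak CPM.

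RNA and accessibility were also compared within the same nuclei. Cd3-positive nuclei with an Ifng UMI had 184 peak CPM within 50 kb of Ifng in the control library and those without had 135, a log2 difference of 0.44 (0.25 to 0.64). For knockout nuclei the values were 144 and 121, a difference of 0.24 (0.09 to 0.40). For Il12rb2 the difference was 0.55 (0.39 to 0.69) in the control and 0.36 (0.22 to 0.50) in the knockout library, and for Tbx21 0.28 (0.12 to 0.43) and 0.19 (0.08 to 0.29). For Cxcr3 both intervals included 0, and for Stat4 that of the knockout library did, in which 44 nuclei lacked a Stat4 UMI. Restricted to the gene and 2 kb before its start, the differences grew to 1.07 and 0.47 for Ifng and to 1.05 and 0.92 for Il12rb2.

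Nuclei with a UMI were deeper than those without, with median UMIs of 2885 and 2308.5 for Ifng in the control and of 6406 and 3081 in the knockout library. The part of depth in these differences was not tested, beyond leaving out nuclei above 2 times the median UMIs. Over the full 50 kb window that gave 0.81 and 0.77 for Il12rb2, in place of 0.55 and 0.36. Control nuclei with an Il12rb2 UMI also had more counts at Ifng, by 1.25 (0.75 to 1.75), and at Tbx21, by 0.61 (0.31 to 0.82), over the gene and 2 kb before its start. The difference was 0.81 (0.32 to 1.31) at Cxcr3 and 0.07 (-0.05 to 0.21) at Stat4. In the knockout library it was 0.43 (0.01 to 0.90) at Ifng and 0.48 (0.26 to 0.72) at Tbx21. At Cxcr3 it was 0.17 (-0.20 to 0.66) there and at Stat4 0.09 (-0.04 to 0.20), both with intervals including 0.

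Between the libraries, the summed levels of Il12rb2 and Tbx21 were higher and that of Ifng lower in the knockout Cd3-positive nuclei, all by less than 1.5-fold. The series title places Zfp362 in inflammatory T cell responses apart from Th17 differentiation, and this comparison asks how the Th1 axis stood in its knockout. Il12rb2 stood at 404 and 550 CPM, a log2 difference of 0.45 (0.37 to 0.52). Tbx21 differed by 0.33 (0.14 to 0.52), Stat4 by 0.13 (0.10 to 0.17), Ifng by -0.23 (-0.38 to -0.07) and Cxcr3 by 0.03 (-0.23 to 0.28). No member reached the threshold used for a call, 1.5-fold with an interval that excludes 1, which 6.93% of 12330 genes tested reached, 3.76% higher and 3.17% lower. In Cd3-negative nuclei, where 6.46% of 11028 genes did, 3.76% higher and 2.69% lower, no member reached it either. There Il12rb2 differed by 0.42 (0.23 to 0.62) and Ifng by -0.36 (-0.75 to 0.01).

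The composition of the Cd3-positive nuclei also differed between the libraries. Cluster 3, unnamed and with a median of 5462 UMIs, held 30.3% of the control and 55.7% of the knockout Cd3-positive UMIs. Over all kept nuclei of this cluster, Cd3-positive or not, Il12rb2 was higher in the knockout by 0.88 (0.75 to 1.02), Tbx21 by 1.01 (0.67 to 1.38) and Ifng by 0.60 (0.32 to 0.90). Its leading genes include immunoglobulin genes, and its nature was not determined. Without cluster 3 the difference in Cd3-positive nuclei was 0.42 for Il12rb2, 0.16 for Tbx21, with an interval of -0.09 to 0.40, and -0.38 for Ifng. Thinning every nucleus to 1000 UMIs gave -0.069 (-0.38 to 0.23) for Ifng, and leaving out nuclei above 2 times the median UMIs gave 0.44 (0.06 to 0.81) for Cxcr3. With knockout clusters weighted to the control library's shares the difference was 0.39 for Il12rb2, 0.26 for Tbx21 and -0.22 for Ifng. The part of composition and depth in these differences was not tested beyond these values.

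**Figure D5:**
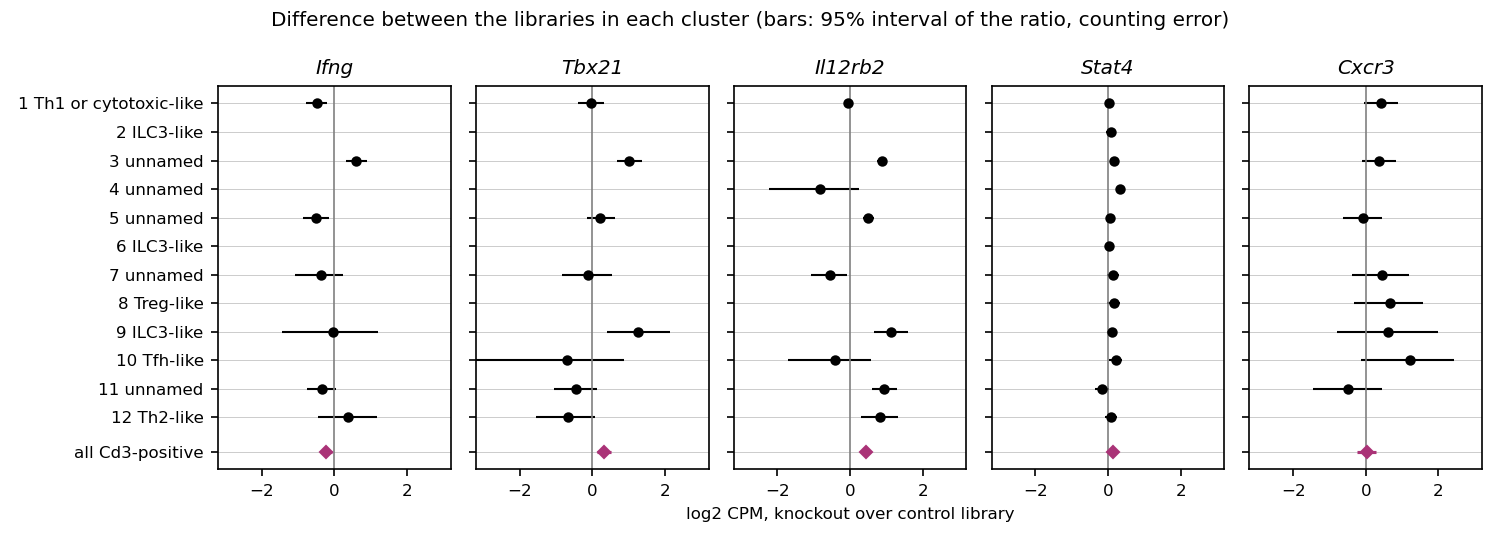
Log2 ratio of each gene's CPM in the knockout over the control library in clusters with at least 50 nuclei in each library and 20 UMIs in all (black), and in all Cd3-positive nuclei (diamond), with 95% intervals for counting error. Cluster values cover all kept nuclei of the cluster, Cd3-positive or not. Il12rb2 lies near 0 in cluster 1 and above 0 in clusters 3, 5, 9, 11 and 12; Ifng lies below 0 in clusters 1 and 5 and above 0 in cluster 3.

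Inside clusters, over all their kept nuclei, Il12rb2 stood at -0.05 (-0.17 to 0.07) in cluster 1, where its level was highest among the clusters compared. It was higher in the knockout in 5 of the other 8 clusters compared. These were cluster 3, cluster 5 (0.50), ILC3-like cluster 9 (1.12), cluster 11 (0.94) and Th2-like cluster 12 (0.81). In cluster 7 it was lower, at -0.55 (-1.08 to -0.08). Clusters with fewer nuclei or UMIs were not compared, but among them Il12rb2 was also higher in ILC3-like cluster 2, at 2.31 (0.51 to 4.97). That cluster is the reference for RNA that does not belong to the nucleus. Values were 2.88 (0.61 to 6.43) in Treg-like cluster 8 and 2.82 (0.94 to 6.28) in cluster 13. Clusters 6 and 14 lay below 0 with intervals including 0. The part of such RNA in these differences was not tested. Ifng was lower in cluster 1, at -0.49 (-0.78 to -0.20), and in cluster 5, at -0.50 (-0.86 to -0.15). Tbx21 differed by -0.03 (-0.39 to 0.32) in cluster 1 and was higher in cluster 9, by 1.26 (0.41 to 2.14), on 21 control and 30 knockout UMIs. Cxcr3 was higher in 6 and lower in 2 of 8 clusters, none with an interval that excluded 0. Stat4 values were above those of the control in 11 of 12 clusters, by less than 1.5-fold in each.

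Accessibility around the members differed less. Within 50 kb, Il12rb2 stood at 181 and 182 peak CPM in control and knockout Cd3-positive nuclei, a log2 difference of 0.00 (-0.10 to 0.09), beside its RNA difference of 0.45. The window difference was 0.13 (0.03 to 0.20) for Tbx21, -0.15 (-0.28 to -0.05) for Ifng, -0.06 for Stat4 and 0.04 for Cxcr3, the last pair with intervals including 0. Of 90 member regions with at least 50 counts, 0 were called higher and 3 lower in the knockout, against 3.78% and 2.06% of 66818 regions tested (5.84% in all). The 3 were an intergenic Ifng region at 17.8 kb, from 17.4 to 11.6 peak CPM (-0.59), a region at -0.67 kb of Tbx21, from 7.42 to 4.70 (-0.66), and an Il12rb2 intronic region at 53.5 kb, from 3.36 to 1.26 (-1.40). The region over the Tbx21 start, next to the lower one, went the other way, from 9.88 to 14.8 peak CPM (0.58, 0.08 to 0.82). The region over the Ifng start differed by 0.11 (-0.23 to 0.48), and the Ifng gene with 2 kb before its start by 0.13 (-0.19 to 0.45), opposite in sign to the window. In Cd3-negative nuclei 3 of 66 member regions were higher and 2 lower, against 2.53% and 1.98% of 55140 (4.51% in all).

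Other genes of the pathway, listed with earlier results known, mostly stayed within 1.5-fold between the libraries' Cd3-positive nuclei. The share called among all 12330 genes tested was 3.76% higher and 3.17% lower. Of 12 receptor and signalling genes none was called, with a median log2 difference of 0.04 against -0.00056 for all genes, and the values ran from Il27ra, an interleukin 27 receptor chain (-0.39), to Il18rap, an interleukin 18 receptor chain (0.26). Of 13 measured transcriptional regulators, 0 rose and 1 fell, close to the 6.93% of all genes called in either direction. The gene that fell was Eomes, with 74 control and 17 knockout UMIs (-2.18, -3.07 to -1.44). Irf1, an interferon-induced activator, differed by 0.32 and Runx1 by 0.26. Cluster 16, which Eomes led, held 70 control and 14 knockout nuclei.

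Of 14 effector and trafficking genes, 3 rose and 2 fell, against 3.76% and 3.17% of all genes, with a median of -0.23. The chemokine genes Ccl3 (0.98), Ccl4 (1.03) and Xcl1 (0.61) rose, and Ccl5 (-0.62) and the granzyme gene Gzmk (-0.59) fell. Of 20 measured interferon-gamma target genes, 0 were called in either direction, against 6.93% of all genes, and the median was -0.03. Their values ran from Socs1 (-0.37), Gbp2 (-0.37) and Psmb8 (-0.30) to Gbp8 (0.47), Irgm1 (0.56) and Cxcl9 (0.75, on 21 control and 38 knockout UMIs, -0.04 to 1.61). Among 14 genes of opposing lineages, 1 rose and 1 fell, against 3.76% and 3.17% of all genes, with a median of -0.01. The gene that fell was Foxp3 (-0.62). Leaving out nuclei above 2 times the median UMIs gave 3 calls over these lists in place of 8, and thinning every nucleus to 1000 UMIs gave 4.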

How the data were processed

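Per the submitters' processing notes, reads were processed with Cell Ranger ARC 2.0.1 on mm10. The values used here are the deposited counts, UMIs per gene and cut-site counts per peak in each nucleus, with a peak set of its own for each library. Strand use and other settings were not stated.

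Nuclei were kept from 1000 UMIs and 300 genes up and to 10% mitochondrial UMIs (totals: 10680144 control and 9272901 knockout UMIs), and no doublet caller was run. Counts were summed per library and class. Log2 ratios used a pseudocount of 0.5 counts, genes with at least 20 summed UMIs and peak regions with at least 50 counts. Intervals are exact (Poisson, binomial, or conditional binomial for ratios), at 95%, with peak counts divided by 2 because a fragment has 2 cut sites (91.7% and 90.7% of entries were even). They cover counting error only, and with 1 library per genotype no test between genotypes exists. Intervals of summed counts take the counts of 1 nucleus as independent, so they can be too narrow where few nuclei hold many UMIs. Those of co-detection ratios hold the product of the shares fixed. Peaks of both libraries that shared at least 1 base were merged into 73219 regions. Nuclei were clustered (2000 variable genes, 30 components, 15 neighbours, Leiden at resolution 1, leidenalg 0.10.2, Python 3.11.15). A cluster was named when at least 3 listed markers, and at least 1 in 3 of the list, were raised and its leading genes did not go against the name. A dendritic cell or macrophage name was withheld where at least 3 ILC3 markers were raised. The rule was settled after seeing the clusters. Annotation of peaks used GENCODE gene models on mm10.

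The members and pathway lists were chosen with earlier results of these data known. Named genes were the members, the 5 genes most like each in cluster pattern (those of highest r are printed), the called and extreme genes of each list, and promoter, fullest and called peaks; distal peaks with the highest r were added after their values were seen. Results that need certain withheld genes are not reported here. The ratio intervals and the co-detection ratio were run on simulated counts. Those for the ratio intervals were drawn from the Poisson model that the intervals assume, so they do not test UMIs gathered in few nuclei. Alternatives were thinning, deep nuclei, Cd3 threshold, clusters in place of nuclei, scaling, pseudocount, filters, window size and cluster resolution.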

Additional observations from a re-analysis of the deposited data

Results flagged for a closer look

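The knockout-minus-control log2 difference of Ifng RNA went opposite ways in different clusters: -0.49 in the Th1 or cytotoxic-like cluster 1 and -0.50 in cluster 5, against 0.60 in cluster 3. For Il12rb2 it was -0.55 in cluster 7, against 0.88 in cluster 3, 0.50 in cluster 5, 1.12 in ILC3-like cluster 9, 0.94 in cluster 11 and 0.81 in Th2-like cluster 12. Each of these intervals excludes 0, but the difference between clusters was not tested, and each cluster rests on 1 library per genotype.

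Nuclei with exactly 1 Cd3 UMI, 669 control and 345 knockout nuclei, entered neither class and carried all 5 members above the level of Cd3-negative nuclei. In control and knockout they held 88.7 and 105 CPM of Ifng, 96.1 and 93.2 CPM of Tbx21, 376 and 561 CPM of Il12rb2, 2720 and 2955 CPM of Stat4, and 40.7 and 50.9 CPM of Cxcr3. Their control Tbx21 (81.0 to 113) also lay above that of Cd3-positive nuclei (69.9 CPM, 63.2 to 77.0), while in the knockout library the intervals overlapped. Control Ifng in these nuclei (74.3 to 105) lay below that of Cd3-positive nuclei (123 CPM, 115 to 133). Peaks called in 1 library alone were left out of the comparisons of regions. The fullest of these near a member lay in the Tbx21 window in both cases, with 72 counts in Cd3-positive nuclei for a peak of the control and 263 for a peak of the knockout library.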

How the results depend on the processing

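Of 472 values recomputed under an alternative, 390 moved by less than the width allowed, 81 moved further and 1 reversed. No paired analysis was possible because each genotype is 1 library. All differences below are log2, and the cause of a move was not tested. The reversed value was accessibility around Ifng in the knockout over the control Cd3-positive nuclei, 0.13 over the gene and 2 kb before its start. For RNA between genotypes in Cd3-positive nuclei, thinning to 1000 UMIs gave -0.069 for Ifng, leaving out nuclei above 2 times the median UMIs gave 0.55 for Il12rb2 and 0.44 for Cxcr3, and weighting knockout clusters to control shares, chosen after seeing the data, gave 0.30 for Cxcr3.

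Between Cd3-high and Cd3-low clusters, RNA differed in the control and knockout library by 3.57 and 3.52 for Ifng, 2.82 and 2.00 for Tbx21, 3.63 and 2.65 for Il12rb2, 0.52 and 0.62 for Stat4, and 2.69 and 2.25 for Cxcr3. Stat4 between Cd3-positive and Cd3-negative control nuclei was 0.29 when thinned and 0.29 with median ratio scaling. Genes called higher and lower in knockout Cd3-positive nuclei numbered 463 and 391, against 296 and 260 without deep nuclei and 246 and 233 when thinned. Those higher in Cd3-negative nuclei numbered 415, against 257 without deep nuclei, 192 when thinned and 676 with no gene filter. The 8 calls in the pathway lists became 4 at 1 Cd3 UMI, 4 by clusters, 3 without deep nuclei and 4 when thinned.

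Accessibility between genotypes in Cd3-positive nuclei was -0.13 for Stat4 and 0.22 for Cxcr3 over the gene and 2 kb, and 0.24 for Cxcr3 within 25 kb. Between classes, in the control and knockout library, the gene and 2 kb gave 1.13 and 0.98 for Ifng, 0.64 and 0.81 for Tbx21, 0.77 and 0.77 for Il12rb2, 0.56 and 0.53 for Stat4, and -0.15 and -0.12 for Cxcr3. Clusters gave 1.46 and 1.23 for Ifng, 0.62 for Tbx21 in the control, 0.91 and 0.71 for Il12rb2, and 0.70 and 0.51 for Stat4. A window of 100 kb gave 0.14 and 0.27 for Tbx21 and 0.26 and 0.27 for Il12rb2, and one of 25 kb gave 0.46 and 0.36 for Cxcr3.

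Co-detection in the knockout library was 0.51 for Ifng with Cxcr3 at 1 Cd3 UMI and 0.25 for Tbx21 with Cxcr3 under a second seed. Accessibility in nuclei with over without the gene's own UMI, over the gene and 2 kb, was in control and knockout 1.07 and 0.47 for Ifng, 0.56 and 0.30 for Tbx21, 1.05 and 0.92 for Il12rb2, and -0.11 and 0.34 for Cxcr3. Over the 50 kb window, where Tbx21 gave 0.28 and 0.19, Il12rb2 0.55 and 0.36 and Cxcr3 0.22 and 0.09, leaving out deep nuclei gave 0.50 and 0.35 for Tbx21, 0.81 and 0.77 for Il12rb2, and 0.52 for Cxcr3 in the control. With the UMI taken after thinning, the 50 kb window gave 0.71 for Ifng in the control and -0.20 for Cxcr3 in the knockout library. Of the 25 genes most like a member, 15 were found again with clusters of at least 100 nuclei. Depth limits Cxcr3 and Tbx21 most, which were found in 4.12% and 6.01% of control Cd3-positive nuclei at 1000 UMIs.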
